A study of Mus musculus with 24 samples.

Results

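Whole-body loss of JNK1 in acutely obstructed liver was examined in 6 of the 24 liver arrays of the study, 3 from JNK1-/- mice and 3 from control mice, taken 48 h after ligation of the common bile duct (BDL). The arrays were chosen by their titles alone, and all 18820 gene symbols measured were compared. JNK1-/- mice were obtained as a line that lacks JNK1 in every cell. Control mice carried floxed but unrecombined JNK1 alleles (JNK1f/f), so mutant and control came from separate breeding lines. Both groups were male, of C57/BL6 background and labelled as 8 weeks old. Other groups serve as reference: JNK1Δhepa liver ligated for 48 h, in which Cre driven by the albumin promoter deletes the floxed gene in hepatocytes; control liver 48 h after sham surgery (laparotomy alone); and JNK1-/- and control liver ligated for 28 d, from males labelled as 12 weeks old. Each group had 3 arrays, and no JNK1-/- liver after sham surgery was analysed here, so differences present before ligation cannot be told apart from those that came with it. Animals are told apart in the labels by a replicate number alone, so p-values measure the spread between these samples.

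JNK1, whose gene symbol is Mapk8, is a stress-activated kinase. Upstream kinases of the MAP3K and MAP2K classes switch it on in response to cytokines, oxidants and toxic bile acids, and it phosphorylates Jun and other members of the AP-1 transcription factor family. JNK2, encoded by Mapk9, is expressed beside it in liver, whereas JNK3, encoded by Mapk10, belongs mainly to neurons. In liver JNK1 is known for its part in hepatocyte death, proliferation, insulin signalling and lipid metabolism. Ligation dams bile behind the blocked duct, and within days hepatocytes are injured, duct cells proliferate and immune cells arrive.

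The deleted gene was read first. Mapk8 lay at log2 intensities of 7.47, 7.49 and 7.37 in control liver and at 5.33, 6.17 and 6.09 in JNK1-/- liver, with no overlap. Its log2 difference, JNK1-/- minus control, was -1.58 (SE 0.22, limma adjusted p = 0.00057, n = 3 per group). The position of its probes relative to the deletion is not given, so the intensity left cannot be read as intact transcript. The 3 arrays labelled control sham 48 h read 6.93, 6.67 and 6.86, below the ligated controls, and the array labelled JNK1Δhepa 28 d replicate 1 read 7.67. Those arrays enter the present comparison through the pooled variance alone, and 338 genes were called without them in place of the 433 below. The JNK1-/- arrays were the more spread of the pair of groups, with a median SD per gene of 0.139 and 161 genes with an SD over 1, against 0.119 and 54 genes in control liver.

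**Figure D1:**
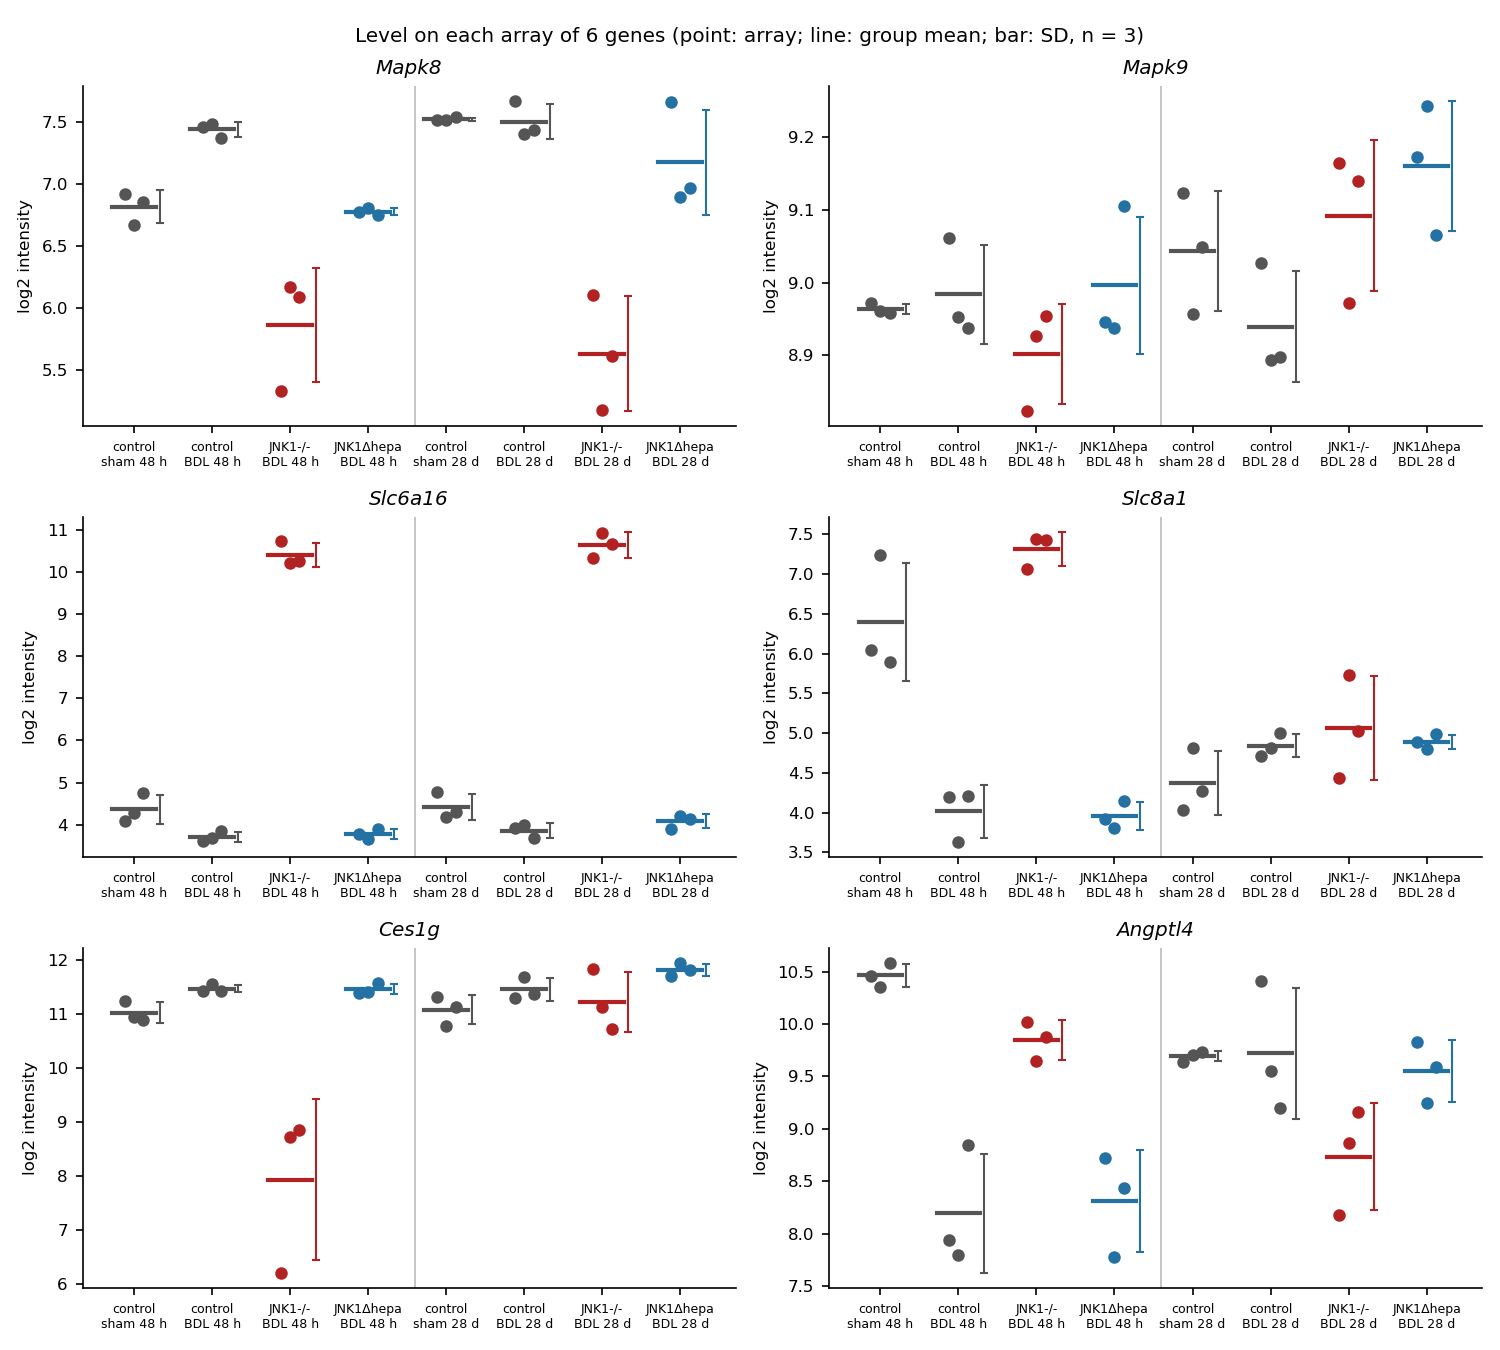
Log2 intensity (y axis, own scale in each panel) of 6 genes on every array of the 8 groups, with points for arrays, a line for the group mean and a bar for the SD (n = 3). Mapk8 is lower in JNK1-/- liver at both times, Slc6a16 is higher at both, and Slc8a1, Ces1g and Angptl4 differ from control at 48 h.

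At 48 h limma called 433 of 18820 genes at an adjusted p under 0.05, a share of 2.3%. Of these, 225 were higher (1.2% of genes tested) and 208 lower (1.11%) in JNK1-/- liver, and 138 differed at least 2-fold, 65 upward and 73 downward. For 431 of the 433 called genes the 3 JNK1-/- arrays did not overlap the 3 control arrays, as was so for 4002 genes in all (21.3%). An unadjusted limma p under 0.05 was reached by 2892 of the 18820 genes, in either direction. The median log2 difference over all genes was 0.00. Among the 225 genes called higher it was 0.71 and among the 208 called lower -0.79. Centring each array on its median gave 384 calls, 63% of them higher, against 52% in the deposited scaling. The count was 234 without JNK1-/- replicate 1, 189 without control replicate 1, 161 without control replicate 2, and 121 when only the 6 arrays were fitted. No called gene changed sign when an array was left out, and 111 genes, 67 higher and 44 lower, stayed called whichever of the 6 was left out.

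**Figure D2:**
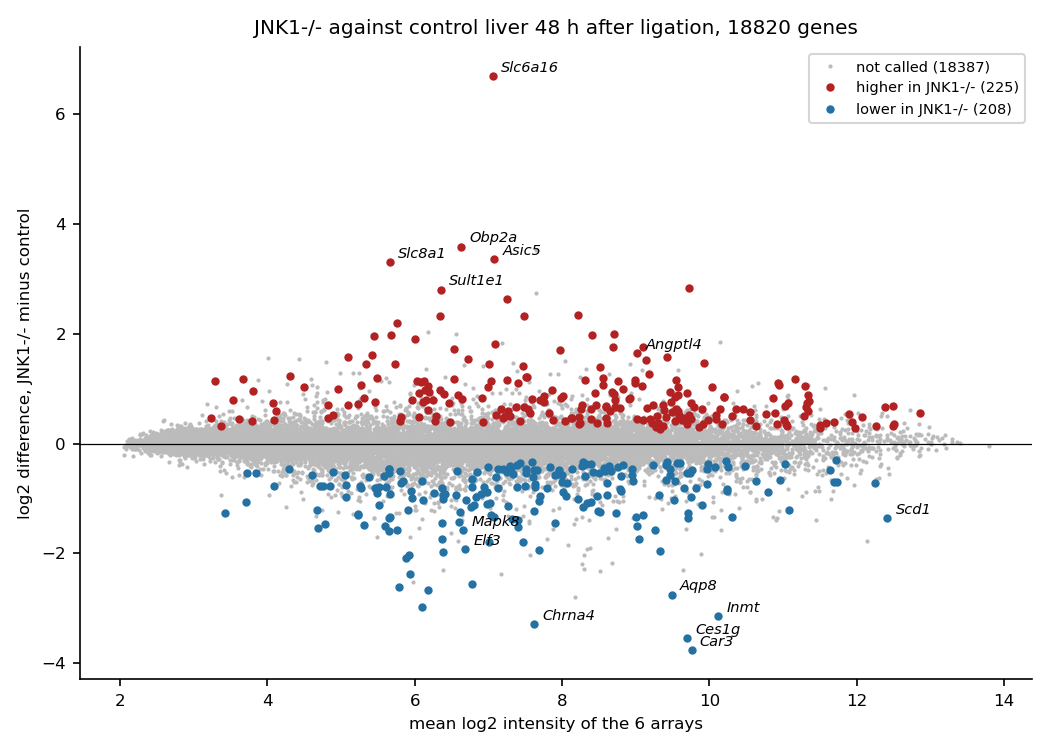
Log2 difference, JNK1-/- minus control 48 h after ligation (y axis), against the mean log2 intensity of the 6 arrays (x axis), with 1 point for each of 18820 genes. Red points are the 225 genes called higher and blue points the 208 called lower. Slc6a16 stands alone at the top, and Car3, Ces1g, Chrna4 and Inmt are the lowest.

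The 15 genes with the largest rise included 5 carriers, channels and flippases. Slc6a16, an orphan member of the neurotransmitter carrier family, lay at 3.6, 3.69 and 3.84 in control liver and at 10.73, 10.21 and 10.27 in JNK1-/- liver. Its log2 difference was 6.70 (SE 0.19, adjusted p = 4.74e-15), the largest of all genes. The control values lie under 3.86, the lower quartile of the control means, so the size of this difference depends on the background of the probe set. Slc8a1, the sodium-calcium exchanger, read 4.20, 3.63 and 4.22 in control and 7.07, 7.44 and 7.43 in JNK1-/- liver, a difference of 3.30 (SE 0.31, adjusted p = 4.54e-06). This is 1 of 2 probe sets of the gene, which disagree: the other averaged 4.69 in control and 4.68 in JNK1-/- liver (log2 difference -0.015). The sham-operated control arrays had read 6.05, 7.24 and 5.89, so the ligated controls were the low group. The JNK1-/- arrays lay mostly above the sham arrays, with overlap at 7.07 and 7.24, and this contrast was not fitted. Asic5, a bile acid-sensitive ion channel of the acid-sensing family, read 5.36, 5.26 and 5.58 in control and 9.99, 7.72 and 8.55 in JNK1-/- liver (3.35, SE 0.35, adjusted p = 2.05e-05). Slc10a6, a carrier of sulfated steroids, read 4.24, 4.53 and 5.31 against 7.33, 6.33 and 6.33 (1.97, SE 0.45, adjusted p = 0.0245). Its groups did not overlap, which the choice of these 15 genes required, but the call was lost without JNK1-/- replicate 1, control replicate 1 or control replicate 2. Atp10d, a lipid flippase, was 4.97-fold higher (SE of the log2 difference 0.27, adjusted p = 6.89e-05).

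Enzymes of steroid, drug and glycan metabolism were also among these 15 genes. Cyp17a1, the 17-alpha-hydroxylase of steroid synthesis, read 8.69, 8.60 and 7.64 in control liver and 12.20, 11.06 and 10.16 in JNK1-/- liver, a 7.11-fold difference (log2 2.83, SE 0.50, adjusted p = 0.00485). Fmo2, a flavin-containing monooxygenase, read 6.21, 7.15 and 7.76 in control and 9.89, 9.26 and 9.01 in JNK1-/- liver (2.35, SE 0.30, adjusted p = 0.000289). Both genes were called whichever array was left out. Sult1e1, estrogen sulfotransferase, read 5.02, 5.23 and 4.62 against 7.72, 8.56 and 6.99 (2.80, SE 0.68, adjusted p = 0.0326). Its groups were apart, as the choice of these 15 genes required, yet the call was lost without any of the 6 arrays other than JNK1-/- replicate 3. B3galt1, a galactosyltransferase, was 4.0-fold higher (adjusted p = 0.0065).

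The rest of the 15 have other roles. Obp2a, a secreted odorant-binding lipocalin, read 5.18, 4.21 and 5.13 in control liver and 9.04, 8.69 and 7.55 in JNK1-/- liver, a 12.0-fold difference (log2 3.59, SE 0.45, adjusted p = 0.000177). Nrg4, a secreted ligand of the ErbB4 receptor, read 7.00, 6.88 and 8.36 against 8.88, 9.73 and 9.54 (1.97, SE 0.43, adjusted p = 0.0198), and the call was lost without JNK1-/- replicate 2 or 3 or control replicate 1 or 2. Tead2, a DNA-binding partner of the coactivator YAP, lay at 5.25, 5.36 and 4.92 in control and at 7.57, 7.53 and 7.38 in JNK1-/- liver (2.32, SE 0.17, adjusted p = 1.24e-07). Its arrays were among the tightest of these genes in both groups. Prelid2, a PRELI-domain protein, was 6.21-fold higher (adjusted p = 8.1e-07), Capn8, a calpain protease, 4.56-fold (adjusted p = 0.00368), and Lnx1, a ubiquitin ligase that targets Numb, 3.90-fold (adjusted p = 3.77e-05). Of the 15 genes named for the largest rise, 12 were called whichever array was left out.

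Enzymes abundant in hepatocytes were among the 15 genes with the largest fall. Car3, the carbonic anhydrase isoform of hepatocytes, muscle and fat, read 12.29, 10.81 and 11.81 in control liver and 7.07, 7.46 and 9.08 in JNK1-/- liver. It was 13.6-fold lower (log2 difference -3.76, SE 0.69, adjusted p = 0.00598). Ces1g, a carboxylesterase that cleaves lipid esters, read 11.42, 11.55 and 11.43 in control and 6.20, 8.72 and 8.85 in JNK1-/- liver (-3.54, SE 0.43, adjusted p = 0.000159). The control arrays were close together, and JNK1-/- replicate 1 lay far below its 2 partners. Inmt, a methyltransferase of indoleamines and thioethers, read 11.98, 11.27 and 11.82 against 7.96, 8.31 and 9.38 (-3.14, SE 0.48, adjusted p = 0.00138). Hsd3b3, a hydroxysteroid dehydrogenase, was 3.90-fold lower (adjusted p = 0.00364), and Cyp2c55, a cytochrome P450, 6.12-fold (adjusted p = 0.0428).

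The genes that fell also included membrane proteins. Aqp8, the water channel of hepatocytes, read 11.08, 10.90 and 10.62 in control liver and 6.79, 8.77 and 8.79 in JNK1-/- liver (-2.75, SE 0.64, adjusted p = 0.0264). Mme, the cell-surface peptidase neprilysin, read 8.16, 6.93 and 7.67 against 3.98, 4.84 and 5.03 (-2.97, SE 0.61, adjusted p = 0.0131). In both genes the lowest value was that of JNK1-/- replicate 1. Chrna4, a nicotinic receptor subunit, was 9.70-fold lower (adjusted p = 0.0339), Clec2h, a C-type lectin, 5.87-fold (adjusted p = 0.00393), and Slc22a26, an organic anion carrier, 5.16-fold (adjusted p = 0.0475). Sytl5, a Rab effector of vesicle traffic (4.24-fold), Phlda2, an imprinted pleckstrin-homology protein (3.93-fold), and Gas2, an actin-associated protein (3.84-fold), were lower too. Fam47e was 4.09-fold lower. Elf3, an epithelial transcription factor of bile duct cells, read 7.25, 7.62 and 8.07 in control and 4.54, 6.15 and 6.5 in JNK1-/- liver (-1.91, SE 0.50). Its adjusted p of 0.0499 was the last under the threshold, and that of Ap1s3, the next gene, was 0.05003.

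Among the 15 genes named for the largest fall, 7 were called whichever array was left out. The calls of Cyp2c55, Slc22a26 and Elf3 were lost without any array other than JNK1-/- replicate 3, and that of Sytl5 without control replicate 2. Aqp8 was lost without JNK1-/- replicate 1 or any control array, Chrna4 without JNK1-/- replicate 1 or control replicate 1 or 2, and Mme and Phlda2 without JNK1-/- replicate 1 or control replicate 1.

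**Figure D3:**
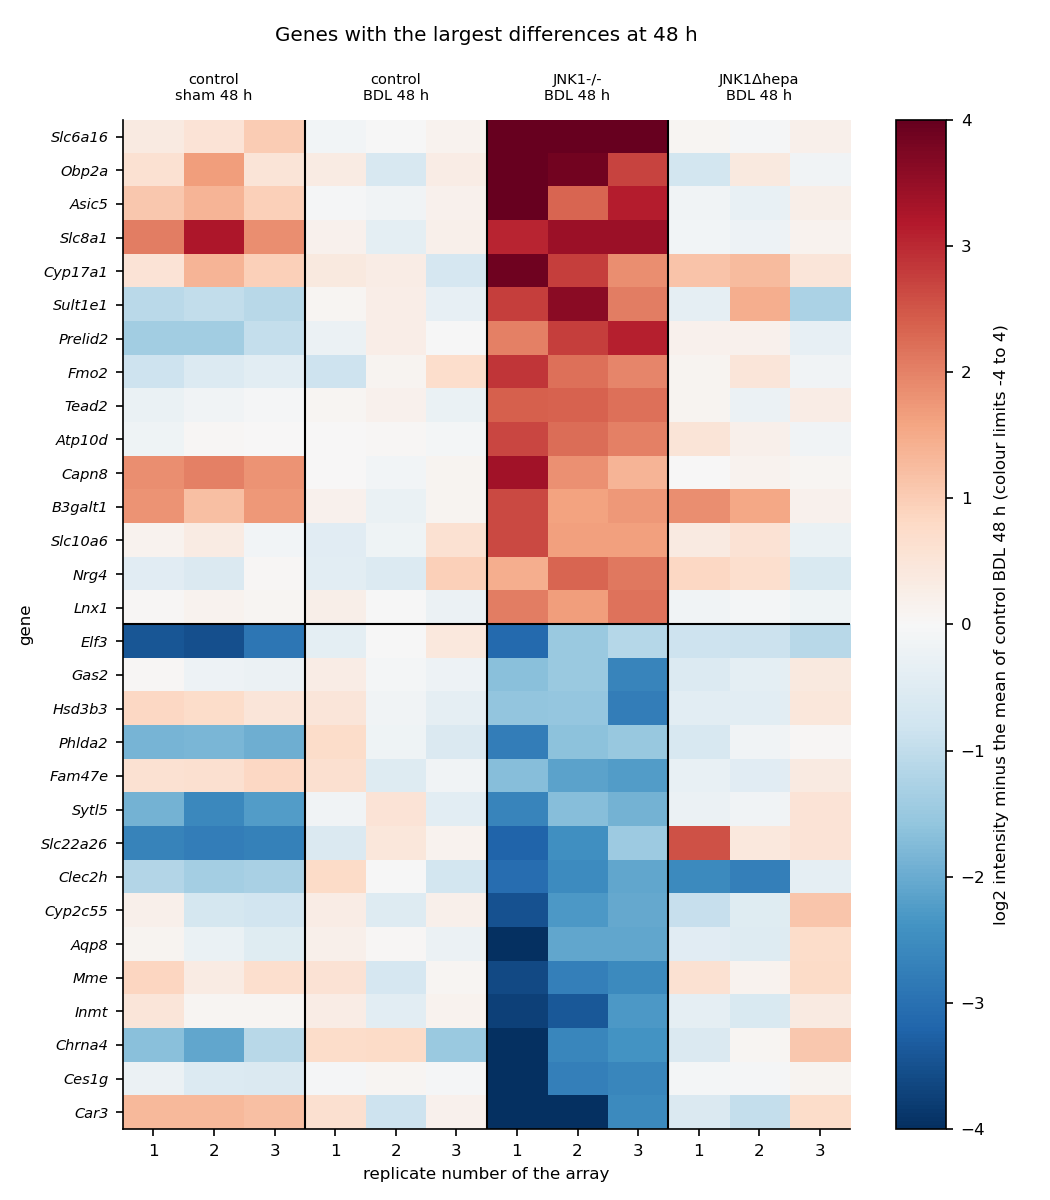
Log2 intensity minus the mean of ligated control liver at 48 h (colour, limits -4 to 4) for the 15 genes with the largest rise and the 15 with the largest fall in JNK1-/- liver (rows), on the 12 arrays of 48 h (columns, by replicate number). The columns of JNK1Δhepa liver stay mostly pale, and for Slc8a1, Capn8 and B3galt1 the sham columns are also high.

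Few other genes of the JNK pathway were called. Mapk9 read 9.06, 8.95 and 8.94 in control liver and 8.82, 8.93 and 8.95 in JNK1-/- liver (-0.08, SE 0.08, adjusted p = 0.7), and Mapk10 was near the bottom of the range (-0.03, SE 0.08, adjusted p = 0.917). Map2k4, a direct activator of JNK, differed by 0.08 (SE 0.07, adjusted p = 0.696). Of 24 upstream kinases and scaffolds 1 was called lower and none higher. This was Map3k1, which feeds the JNK cascade, at 8.48, 8.77 and 8.58 in control and 7.65, 8.22 and 8.17 in JNK1-/- liver (-0.60, SE 0.15, adjusted p = 0.0337). The call was lost without JNK1-/- replicate 1 or any control array. Among 12 ERK and p38 kinases Mapkapk3, a kinase downstream of p38, was lower (-1.25, SE 0.27, adjusted p = 0.0185), and the call was lost without JNK1-/- replicate 1 or control replicate 2 or 3. No dual-specificity phosphatase was called among 16 by limma. At an unadjusted p under 0.05 there were 2 lower, beside 2892 of all 18820 genes in either direction.

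AP-1 genes, the best known substrates of JNK1, gave no call. Of 21 measured, limma called 0, and the median log2 difference was -0.01. At an unadjusted p under 0.05 there were 4 lower, beside 2892 of all 18820 genes in either direction. Jun lay at 9.96, 10.35 and 10.26 in control liver and at 9.00, 9.83 and 9.78 in JNK1-/- liver (-0.65, SE 0.28, adjusted p = 0.27). The JNK1-/- arrays were all below the control arrays, with replicate 1 lowest. Atf3, a stress-induced partner of Jun, read 8.13, 8.77 and 9.80 against 5.73, 8.70 and 7.86 (-1.47, SE 0.51, adjusted p = 0.15), and its groups overlapped. At 48 h both genes were far above the sham arrays, where Jun read 7.90, 7.84 and 7.52 and Atf3 5.66, 5.14 and 5.31, in all ligated livers other than JNK1-/- replicate 1 for Atf3.

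The DNA element bound by AP-1 was then counted in the promoters of the called genes. The motif searched was TGACTCA, read on either strand (TGAGTCA on the other), within 250 bases before to 50 bases after each start site in RefSeq promoters of assembly GRCm38.p6. It was found for 10 of 180 genes called higher with a promoter in the table (5.56%), for 8 of 173 called lower (4.62%), and for 778 of all 14749 genes matched (5.27%). The shares in the called genes were thus near that of all genes. The 250 bases before the start of 3 called genes that hold it are shown, 5′ to 3′ on the strand of the gene with the match in capitals: Capn8, at chr1:182564757-182565006 on the plus strand; Cyp3a13, a cytochrome P450 called higher, at chr5:137921620-137921869 on the minus strand; and Rsad2, the antiviral protein viperin, called lower, at chr12:26456453-26456702 on the minus strand. They show that the same letters occur before genes that moved in opposite directions. Cyp3a13 holds a further match, TGAGTCA from base -6 to base 0, where base 0 is the first after the printed stretch. The stretch ends within that match, which is therefore in lower case.
Capn8: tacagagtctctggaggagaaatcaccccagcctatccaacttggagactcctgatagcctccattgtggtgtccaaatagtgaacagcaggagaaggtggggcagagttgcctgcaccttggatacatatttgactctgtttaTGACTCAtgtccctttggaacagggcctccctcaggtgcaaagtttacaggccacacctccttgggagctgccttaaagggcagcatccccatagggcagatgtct
Cyp3a13: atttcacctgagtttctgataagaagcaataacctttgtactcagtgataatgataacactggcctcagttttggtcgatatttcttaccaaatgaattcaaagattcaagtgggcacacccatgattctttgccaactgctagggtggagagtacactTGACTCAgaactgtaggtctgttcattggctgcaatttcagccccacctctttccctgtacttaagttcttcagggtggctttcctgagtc
Rsad2: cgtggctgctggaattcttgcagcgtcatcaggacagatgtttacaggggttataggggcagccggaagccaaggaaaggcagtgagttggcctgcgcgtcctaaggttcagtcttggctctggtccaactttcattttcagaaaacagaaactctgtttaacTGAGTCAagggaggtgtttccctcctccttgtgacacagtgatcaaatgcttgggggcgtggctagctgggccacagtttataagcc

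Genes of lipid and glucose metabolism were called in both directions. Of 28 genes of fatty acid and triglyceride synthesis, 6 fell and 1 rose, with a median log2 difference of -0.59 and 23 values below 0. The transcription factors of the pathway were among those that fell. Srebf1, the sterol regulatory element-binding factor, read 9.47, 9.10 and 8.30 in control liver and 7.86, 8.08 and 8.04 in JNK1-/- liver (-0.96, SE 0.24, adjusted p = 0.0356). Mlxipl, the glucose-responsive factor ChREBP, was lower by a log2 difference of -0.53 (SE 0.11, adjusted p = 0.0169). The enzymes were Scd1, the main desaturase, at 13.14, 13.17 and 12.96 against 10.48, 12.11 and 12.64 (-1.35, SE 0.33, adjusted p = 0.0316), Acacb, an acetyl-CoA carboxylase (-1.45, adjusted p = 0.0326), Me1, malic enzyme (-1.11, adjusted p = 0.0333), and Gpam, which starts glycerolipid assembly (-0.86, adjusted p = 0.0362). JNK1-/- replicate 1 gave by far the lowest Scd1. Lpin1, a phosphatidate phosphatase that also acts as a coactivator, rose at 9.10, 9.15 and 8.65 against 11.0, 9.67 and 9.68 (1.15, SE 0.29, adjusted p = 0.0363).

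These calls of the synthesis list rest on few arrays. No member was called lower without JNK1-/- replicate 1 or without control replicate 1, or when only the 6 arrays were fitted. Without control replicate 2, or without the arrays whose Mapk8 reading went against the label, 1 was. The call of Lpin1 was lost without JNK1-/- replicate 1 or any control array. Of 18 genes of cholesterol synthesis limma called 0, with 4 lower at an unadjusted p under 0.05, beside 2892 of all 18820 genes in either direction. The median of the 18 was -0.64, with 17 below 0, but 0.00 without JNK1-/- replicate 1.

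Of 25 genes of fatty acid oxidation and PPAR-alpha, 6 rose and none fell, where 1.2% of all genes were called higher. The median of the list was 0.01, with 11 members below 0. Angptl4, a fasting-induced lipase inhibitor, read 7.94, 7.80 and 8.84 in control liver and 10.02, 9.65 and 9.87 in JNK1-/- liver (1.65, SE 0.31, adjusted p = 0.00623). Cpt1a, the gate of mitochondrial fatty acid import, read 11.06, 10.75 and 11.08 against 11.71, 11.76 and 11.76 (0.77, SE 0.14, adjusted p = 0.00598). The JNK1-/- arrays were above every control array for both genes, but groups were apart for 431 of the 433 called genes. Slc25a20, the carnitine carrier, rose by 0.61 (SE 0.11), Ech1, an auxiliary enzyme of the pathway, by 0.84 (SE 0.17), Hadhb, a subunit of the trifunctional protein, by 0.43 (SE 0.08), and Acadm, medium-chain acyl-CoA dehydrogenase, by 0.38 (SE 0.09), all on the log2 scale. Between 4 and 6 members were called without any 1 array, Acadm being lost without JNK1-/- replicate 3 or control replicate 1 or 2 and Ech1 without control replicate 2. When only the 6 arrays were fitted, 3 were called higher and 2 lower. Of members named after their values were seen, Acaa1b, a peroxisomal thiolase, differed by -1.89 (SE 0.51, adjusted p = 0.0534), Ehhadh, the peroxisomal bifunctional enzyme, by -0.92 (SE 0.26, adjusted p = 0.0741), and Cd36, a fatty acid uptake receptor, by -0.44 (adjusted p = 0.282). In other fits, 2 members were called lower with array weights, 1 without JNK1-/- replicate 3 and 1 with the dimmest genes left out.

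Of 23 genes of glucose metabolism 3 rose and 1 fell, with a median of 0.24. Pck1, the enzyme that commits carbon to glucose synthesis, read 11.88, 12.31 and 12.27 in control liver and 12.82, 12.79 and 12.89 in JNK1-/- liver (0.68, SE 0.12, adjusted p = 0.00485). Fbp1, a later enzyme of the same route, rose by 0.32 (SE 0.08) and Insr, the insulin receptor, by 0.45 (SE 0.11), both at an adjusted p near the threshold, 0.035 and 0.0338. Both calls were lost without any array other than JNK1-/- replicate 2. Pygl, liver glycogen phosphorylase, fell, at 10.47, 10.21 and 9.95 against 9.43, 9.41 and 9.41 (-0.80, SE 0.14, adjusted p = 0.00485). Per1, the only called gene of 17 of the circadian clock, read 6.75, 6.82 and 7.79 against 8.97, 8.69 and 8.79 (1.70, SE 0.35, adjusted p = 0.0129), and was lost without control replicate 1 or 2. Fkbp5, a co-chaperone of the glucocorticoid receptor named after its values were seen, read 7.88, 8.25 and 8.53 against 10.41, 9.86 and 9.64 (1.75, SE 0.33, adjusted p = 0.00623).

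**Figure D4:**
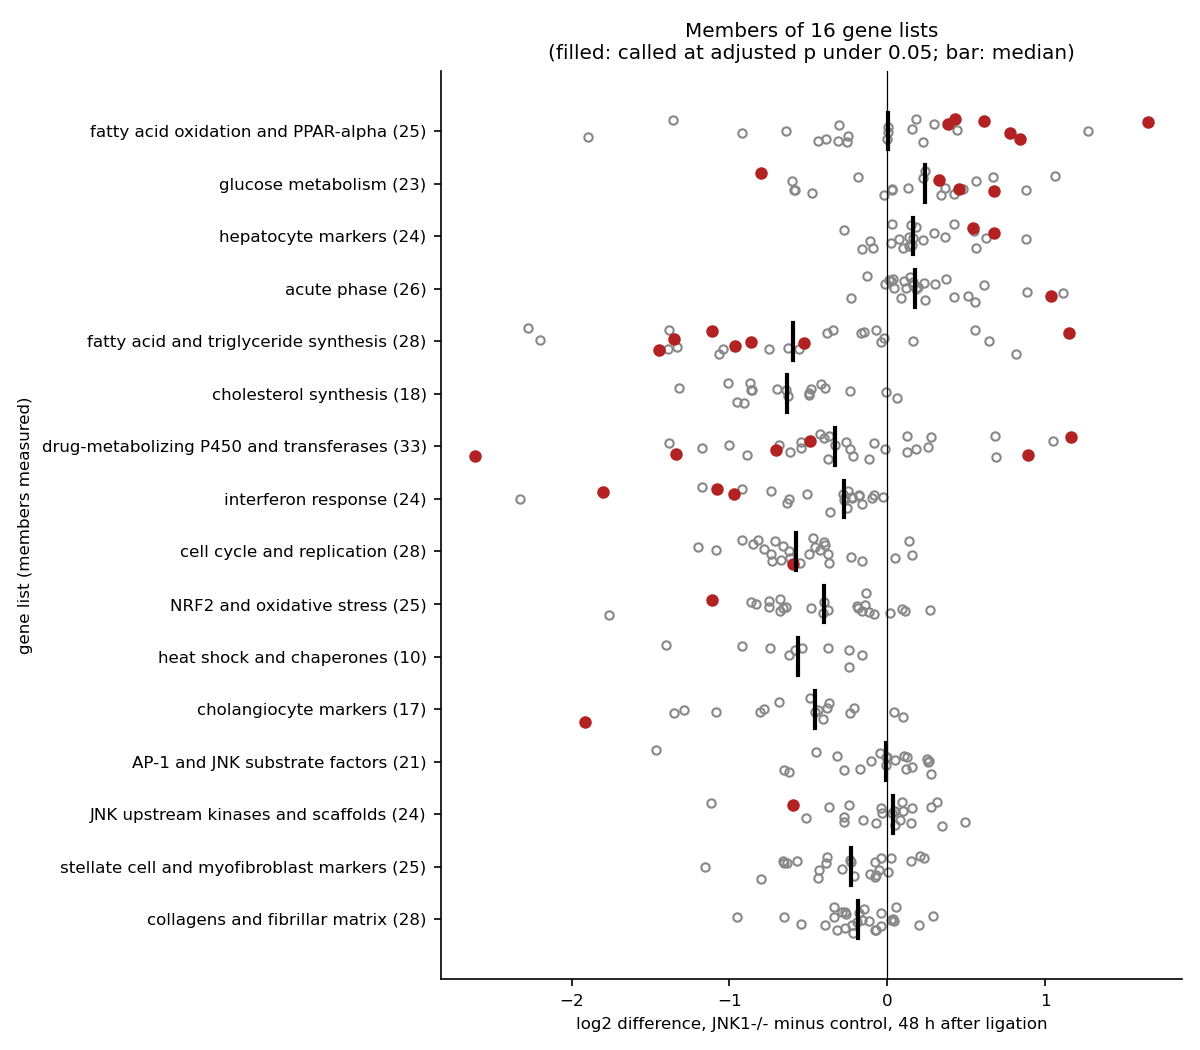
Log2 difference, JNK1-/- minus control 48 h after ligation (x axis), for each measured member of 16 gene lists (rows, with the number measured). Filled points are members called by limma, open points are not, and black bars are list medians. Called members of fatty acid oxidation lie to the right of 0, and those of lipid synthesis lie to the left apart from Lpin1.

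Sex-biased, drug-metabolizing and bile-handling genes were called in small numbers. Among 15 female-biased liver genes 3 rose, which were Cyp17a1, Sult1e1 and Fmo2, and the list's median was 0.13. Of 21 male-biased genes limma called 0, with a median of -0.25. At an unadjusted p under 0.05 there were 6 lower and 1 higher, beside 2892 of all 18820 genes in either direction. In the growth hormone and STAT5 axis, which sets such sex differences in liver, 2 of 14 fell. Stat5a, a transcription factor of this axis, differed by -0.55 (SE 0.13, adjusted p = 0.0271) and Cish, a feedback inhibitor that it induces, by -1.05 (SE 0.26, adjusted p = 0.0378). Stat5a was lost without JNK1-/- replicate 1 or any control array, and Cish without any array other than control replicate 2. Among 33 drug-metabolizing enzymes 4 fell and 2 rose, around a median of -0.33 (-0.17 without JNK1-/- replicate 1). Cyp3a13 rose, at 10.81, 10.75 and 11.10 in control liver and 12.07, 11.58 and 11.69 in JNK1-/- liver (0.89, SE 0.17, adjusted p = 0.00736), as did Cyp2c39 (1.16, adjusted p = 0.0168). The carboxylesterase Ces1d (-1.34, adjusted p = 0.0109), the glucuronosyltransferase Ugt2b34 (-0.49) and the P450 Cyp2c29 (-0.70) fell beside Cyp2c55. Without JNK1-/- replicate 1 no member of this list was called lower, without JNK1-/- replicate 2 there were 2, and without control replicate 1 or 3 there was 1. Of the higher calls 1 was left without control replicate 1 or JNK1-/- replicate 2. These genes belong to large families of similar sequence, whose probe sets may share signal.

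Bile acid genes showed few calls. Of 17 genes of bile acid synthesis Acox2, the peroxisomal oxidase that shortens the side chain, rose at 10.98, 11.08 and 11.04 against 11.70, 11.46 and 11.45 (0.50, SE 0.09, adjusted p = 0.00598). Among 21 genes of bile and anion transport Slco1a4, an organic anion uptake carrier, rose at 9.42, 9.37 and 9.76 against 10.49, 10.56 and 10.61 (1.04, SE 0.20, adjusted p = 0.00824). Abcc6, an efflux pump of the ABC family, rose at 8.48, 8.77 and 7.31 against 9.28, 9.15 and 9.54 (1.14, SE 0.24, adjusted p = 0.0147). The JNK1-/- arrays were above all control arrays for each of these genes, a trait shared by nearly all called genes (431 of 433). Slco1a4 was lost without control replicate 2 and Abcc6 without JNK1-/- replicate 3. Among 16 bile acid and xenobiotic receptor genes Klb, the co-receptor of FGF15, rose by 0.90 (SE 0.20, adjusted p = 0.0214), a call that did not hold without JNK1-/- replicate 1 or any control array.

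The listed interferon-response genes lay below control, some by very little. All 24 measured had a log2 difference under 0, from -2.33 to -0.03 with a median of -0.28, and 3 were called lower. Oasl1, an oligoadenylate synthetase-like protein, read 8.89, 8.59 and 7.64 in control liver and 7.38, 6.18 and 6.16 in JNK1-/- liver (-1.80, SE 0.41, adjusted p = 0.0223). Oasl2, of the same family, read 7.30, 7.18 and 7.48 against 6.53, 6.17 and 6.34 (-0.97, SE 0.22, adjusted p = 0.0211), and Rsad2 read 7.87, 7.30 and 7.53 against 6.55, 6.34 and 6.57 (-1.08, SE 0.26, adjusted p = 0.0316). No JNK1-/- array reached a control array in any of them, as in 431 of the 433 called genes, so this adds little to the calls. Without control replicate 1, control replicate 2 or JNK1-/- replicate 2 no member was called, and without control replicate 3 or JNK1-/- replicate 3 there was 1. The chemokines Cxcl9 (-2.33, adjusted p = 0.0954) and Cxcl10 (-2.17, adjusted p = 0.0876), which interferon induces, were not called. Ifi44l, an interferon-induced gene outside the list and named after its values were seen, was called higher. Its log2 difference was 0.75 to 1.45 with 1 array left out, and the call held only without JNK1-/- replicate 2. Of 15 MHC genes 14 were below 0 (median -0.34) and 1 was called. This was H2-Q1, an MHC class I gene of a family with close copies, which fell at 8.40, 7.94 and 7.95 against 6.24, 6.85 and 7.03 (-1.39, SE 0.24, adjusted p = 0.00423). It held whichever array was left out.

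Proliferation and stress lists lay low with few calls. Of 28 cell cycle and replication genes 25 were below 0 (median -0.58) and 1 was called, the helicase subunit Mcm7 (-0.60, SE 0.16, adjusted p = 0.0497). All 10 heat shock and chaperone genes were below 0 (median -0.56), and limma called 0, with 9 lower at an unadjusted p under 0.05. Among 25 NRF2 and oxidative stress genes Me1 alone was called (median -0.40, with 13 lower at an unadjusted p under 0.05). JNK1-/- replicate 1 had the lowest level of the 3 JNK1-/- arrays for each of these 3 lists. Without it the medians were -0.36 for cell cycle, -0.33 for heat shock and -0.15 for NRF2 genes, and without control replicate 1 that of cell cycle genes was -0.37. The mean level of the cell cycle list per array, taken over its measured members, overlapped between the groups. It was 7.05, 6.62 and 6.18 in control and 5.71, 6.26 and 6.27 in JNK1-/- liver. Of 23 regulators of cell death Bmf, a pro-apoptotic BH3-only protein, rose at 5.67, 5.53 and 5.36 against 6.98, 6.63 and 6.31 (1.13, SE 0.19, adjusted p = 0.00424). Bid, another BH3-only protein, fell at 8.23, 8.30 and 8.76 against 7.45, 7.80 and 7.88 (-0.72, SE 0.15, adjusted p = 0.0145). Bmf held whichever array was left out, and Bid was lost without JNK1-/- replicate 1 or control replicate 3. Mcm7 held only without control replicate 3 among these fits. No gene was called among 24 of ER stress, 21 of p53 and DNA damage, 31 cytokines and chemokines, or 30 of TGF-beta and BMP signalling, where limma gave 2, 7, 8 and 6 genes at an unadjusted p under 0.05. That unadjusted threshold was passed by 2892 of all 18820 genes, in either direction.

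Markers of the cell types in these samples were read beside the gene groups. In whole liver, fewer cells of a type and less RNA per cell cannot be told apart. Hepatocyte markers had a median of 0.16 with 20 of 24 above 0, and Pck1 and Arg1, an enzyme of the urea cycle (0.54, adjusted p = 0.0339), were called higher. The call of Arg1 was lost without any 1 of the 6 arrays. The mean level of this list per array was 11.93 to 12.02 in control and 12.15 to 12.29 in JNK1-/- liver. Of 17 cholangiocyte markers 15 were below 0 (median -0.46), and Elf3 was the only call. This median was -0.26 without JNK1-/- replicate 1 and -0.74 without control replicate 2. Their mean level was 6.52, 6.18 and 6.46 on the control arrays, 5.35, 5.81 and 6.10 on the JNK1-/- arrays, and 5.14 to 5.2 after sham surgery. The JNK1-/- arrays lay below the ligated controls, with replicate 1 lowest, and above the sham arrays. The part of these markers in the other results was not tested.

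Of 26 acute phase genes 23 were above 0 (median 0.17) and 1 was called. This was Il6ra, the interleukin-6 receptor of hepatocytes, which rose at 8.89, 9.00 and 9.27 against 10.54, 9.80 and 9.93 (1.04, SE 0.19, adjusted p = 0.00646) and held whichever array was left out. Ftl1, the light chain of ferritin, was the 1 call of 18 iron-handling genes (-0.43, SE 0.09, adjusted p = 0.0131), lost without JNK1-/- replicate 1 or control replicate 3.

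Immune and stromal markers gave few calls. Chil3, a lectin of recruited myeloid cells, rose at 4.59, 4.74 and 5.84 against 7.14, 7.41 and 6.31 (1.90, SE 0.37, adjusted p = 0.00965), and was lost without control replicate 1 or 2. Of the same 18 monocyte and macrophage markers Cd9, a tetraspanin, fell (-0.43, SE 0.11, adjusted p = 0.0475), a call lost without any 1 of the 6 arrays. Of 19 T, NK and B cell markers Nkg7, a granule protein of cytotoxic lymphocytes, fell at 5.42, 5.25 and 5.17 against 4.07, 4.29 and 3.85 (-1.21, SE 0.26, adjusted p = 0.0172), and was lost without JNK1-/- replicate 1 or 3 or control replicate 1 or 2. Limma called none of 14 Kupffer cell, 15 neutrophil, 25 stellate cell and myofibroblast, 21 endothelial, 12 mesothelial or 7 erythroid markers, nor of 28 collagen genes. At an unadjusted p under 0.05 these lists held 1, 2, 2, 3, 0, 2 and 3 genes, beside 2892 of all 18820 genes. Without control replicate 3, whose mean neutrophil level was 6.74 beside 5.43 and 5.84 on its partners, 3 neutrophil markers were called higher and the list's median difference went from 0.16 to 0.64. Relative to JNK1Δhepa liver that median was 0.99, with 2 called higher. Without JNK1-/- replicate 3, 1 endothelial and 1 erythroid gene were called higher, and with only the 6 arrays fitted 1 stellate cell and 1 erythroid gene were called lower. Of 22 growth factors Pdgfc, which acts on stellate cells, fell at 8.41, 8.07 and 8.19 against 7.18, 6.78 and 7.04 (-1.23, SE 0.26, adjusted p = 0.0147), a call lost without control replicate 1 or JNK1-/- replicate 2. The JNK1-/- arrays differed among themselves in blood and vessel markers. The mean level of erythroid genes was 6.75, 5.81 and 5.23 on replicates 1 to 3, and that of endothelial markers 8.55, 8.14 and 7.50, whereas control liver spanned 5.51 to 5.81 and 7.95 to 8.21.

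Whether the differences at 48 h were also present in chronic obstruction was asked of separate mice ligated for 28 d. There limma called 118 genes between JNK1-/- and control liver (0.627%), 81 higher and 37 lower. Of the genes called at 48 h, 41 were called in the same direction at 28 d and 0 in the opposite one. These were 28 higher, 12.4% of the 225 at 48 h and 34.6% of the 81 at 28 d, and 13 lower, 6.25% of the 208 and 35.1% of the 37. The median log2 difference at 28 d was 0.05 for the genes higher at 48 h, of which 132 of 225 kept their sign, and 0.03 for those lower, of which 99 of 208 did. The count at 28 d was 56 without JNK1-/- replicate 1, 78 without JNK1-/- replicate 2, 413 without control replicate 2, and 1 when only the 6 arrays of 28 d were fitted.

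Genes called at both times included several of the largest at 48 h. Slc6a16 differed by 6.70 at 48 h and 6.78 at 28 d, Tead2 by 2.32 and 2.08, Prelid2 by 2.64 and 1.98, and Lnx1 by 1.96 and 1.65. Asic5 (3.35 and 1.70) and Atp10d (2.31 and 1.23) were higher at both times too. Among the lower genes Gas2 (-1.94 and -1.72), Igsf23, an immunoglobulin superfamily member (-1.74 and -1.69), and Mapk8 (-1.58 and -1.87) had the largest values. Bid (-0.72 and -0.87) and Bcl2l13, a relative of Bcl2 in mitochondria (-0.94 and -0.89), were also lower at both. Flt1, a receptor of VEGF, differed by -0.80 and -0.93. Of the 41, chromosomes 7 and 14 held 9 each, from 1647 and 659 genes tested. At 48 h 2.67% of the tested genes of chromosome 7 were called, near the 2.3% of all genes. Tead2, Cd37, Slc6a16 and Slc6a21, all higher at both times, are consecutive among the tested genes of chromosome 7. Mapk8 itself lies on chromosome 14, where 25 of 659 genes were called at 48 h (3.79%, beside 2.3% of all genes). Chromosome 3 had a higher share (3.95%), and chromosomes 5, 19 and 13 had 3.61%, 3.44% and 3.40%. Among the 100 tested genes nearest to it 2 were called, and among the next 200 there were 11 (5.5%).

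**Figure D5:**
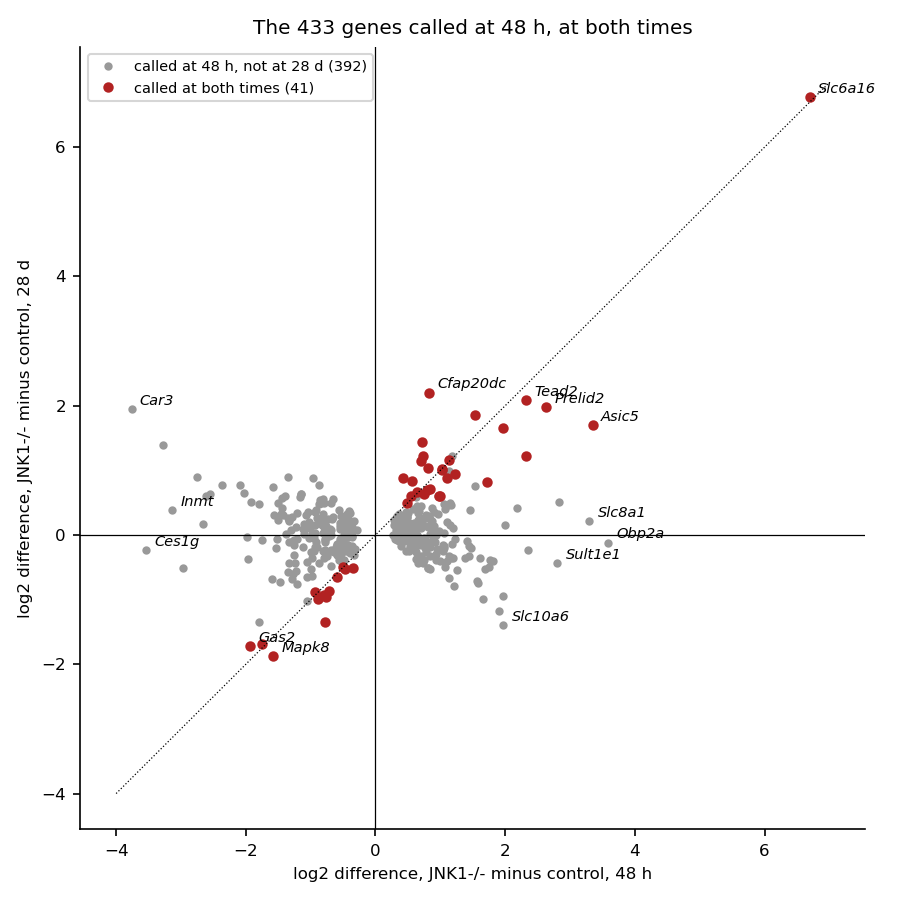
Log2 difference, JNK1-/- minus control, at 48 h (x axis) and at 28 d (y axis) for the 433 genes called at 48 h, with the line of equal values dotted. Red points are the 41 genes called at both times, all with the same sign, and grey points the other 392. Car3, Ces1g, Inmt, Obp2a and Slc8a1 are far from 0 at 48 h and closer to 0, or reversed, at 28 d.

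The change of the JNK1-/- difference from 48 h to 28 d was tested directly. Limma called 140 genes in this interaction (0.744%). Of the 225 genes higher at 48 h it called 47, 46 of them toward 0, and of the 208 lower 45, all 45 toward 0. These genes had been called because they were far from 0 at 48 h, so a shift back is partly built in. Car3 differed most, at -3.76 at 48 h and 1.95 at 28 d (interaction 5.71, adjusted p = 0.0126). Slc8a1 went from 3.30 to 0.22, Obp2a from 3.59 to -0.12, Angptl4 from 1.65 to -0.98 and Srebf1 from -0.96 to 0.89, and none of these 28 d values was called. The count was 16 and 25 without control 48 h replicates 1 and 2, 48 and 81 without JNK1-/- 48 h replicates 1 and 2, and 32 and 73 without JNK1-/- 28 d replicates 1 and 3. It was 52, 442 and 574 without control 28 d replicates 1, 2 and 3, the group with the widest spread (median SD 0.187), and 0 when only these 12 arrays were fitted.

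JNK1Δhepa liver at 48 h was compared with the same controls. Limma called 0 genes there, with 607 at an unadjusted p under 0.05, up to 3 in the other fits of those arrays, and a share of 0%. Mapk8 was lower in every JNK1Δhepa array (6.77, 6.81 and 6.76), though above every JNK1-/- array (-0.66, not called). The direct comparison, JNK1-/- minus JNK1Δhepa, called 460 genes (2.44%), 226 higher and 234 lower. Of the 15 genes with the largest rise against control 13 were called in it, and of the 15 with the largest fall 12. For the former the JNK1Δhepa difference from control ran from -0.16 to 1.20, and for the latter from -1.89 to 1.17. The Slc8a1 probe set that differed from control was again far apart, at 3.92, 3.81 and 4.15 in JNK1Δhepa liver (JNK1-/- minus JNK1Δhepa 3.36, adjusted p = 3.4e-06), as was Ces1g at 11.39, 11.41 and 11.56 (-3.53, adjusted p = 0.000133). The 5 not called were B3galt1, Cyp17a1, Clec2h, Cyp2c55 and Elf3, whose JNK1Δhepa means lay between those of the other groups. Clec2h, for example, read 5.5, 5.33 and 7.68 in JNK1Δhepa liver, against 8.83, 8.03 and 7.32 in control and 5.0, 5.54 and 5.98 in JNK1-/- liver. The comparisons with control and with JNK1Δhepa share the JNK1-/- arrays, on which the 15 genes per direction were chosen. The counts of 13 and 12 are therefore partly built in. The count of 460 was 228 and 287 without JNK1-/- replicates 1 and 2, and 245, 209 and 145 without JNK1Δhepa replicates 1, 2 and 3.

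Gene lists were set side by side for both mutants. The 28 lipid synthesis genes had a median of -0.59 in JNK1-/- liver against control and 0.03 in JNK1Δhepa liver, and 8 fell and 1 rose in JNK1-/- relative to JNK1Δhepa liver. The 24 interferon genes had medians of -0.28 and -0.09, with 2 lower in the direct comparison, and the 28 cell cycle genes -0.58 and 0.04, with 3 lower. Cholangiocyte markers had medians of -0.46 and -0.34. In JNK1-/- relative to JNK1Δhepa liver their median was 0.02, with 1 called lower. The values of both mutants against control subtract the same ligated control arrays, so a high control reading lowers both.

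The ligation response of control liver gives a last reference, with its low sham side resting on the arrays labelled control sham 48 h. It comprised 1775 genes (9.43%), 5.61% higher and 3.83% lower, and without control ligated replicate 2 or sham replicates 1 and 3 the count was 1104, 1106 and 1156. Of the 15 genes with the largest rise in JNK1-/- liver 6 were called in it and of the 15 with the largest fall 4. Angptl4 (-2.27), Lpin1 (-2.51), Slc8a1 (-2.38), Capn8 (-1.89) and B3galt1 (-1.58) were lower after ligation in control liver and higher in JNK1-/- than in control ligated liver. Sytl5 (2.24), Phlda2 (1.88), Slc22a26 (2.71) and Elf3 (3.27) were higher after ligation in control and lower in JNK1-/- ligated liver. Other genes went against this pattern. Prelid2 (1.24) and Chil3 (1.71) were higher after ligation and higher again in JNK1-/- liver, and Pygl (-0.90) and Mlxipl (-0.92) were lower after ligation and lower again in JNK1-/- liver. For Car3 (-1.27, adjusted p = 0.295) and Ces1g (0.45, adjusted p = 0.601) the difference between ligated and sham control liver was not called. Both comparisons use the ligated control arrays, which alone gives their values opposite signs in part, so no overlap between them is given.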

How the data were processed

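Liver RNA was measured on 24 arrays in 8 groups of 3. Per the labels' protocols, total RNA was extracted with TRIzol and columns, amplified and labelled with biotin. The deposited values are log2 intensities per probe set, which the authors made with RMA per the submitters' processing notes. RMA's version and settings, the genome build and the probe positions were not given in the sources used here.

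Of 35556 probe sets, 21218 carried 1 gene symbol, 1881 several and 12457 none. Each of 18820 symbols was read from its brightest single-symbol probe set. By gene number, 21185 probe sets matched RefSeq on assembly GRCm38.p6 and 33 did not. That listing gave names, chromosomes and the order of genes. No arrays were identical (highest correlation 0.9969), and array number limits the precision, with a median SE of 0.129. Group differences came from limma 3.58.1 (R 4.3.3, data.table version 1.17.8), as contrasts of 8 group means over all 24 arrays (16 residual degrees of freedom, prior 3.55). P-values were adjusted by Benjamini and Hochberg over all 18820 genes and called under 0.05. There were 6 comparisons: JNK1-/- against control and against JNK1Δhepa, JNK1Δhepa against control, and ligated against sham control, all at 48 h, JNK1-/- against control at 28 d, and the change of that difference with time.

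The groups, comparisons and 43 gene lists (939 genes, 825 measured) were chosen with earlier results of these data known. Named genes were up to 15 per direction with the largest difference among those called without overlap between the groups, without predicted, receptor-family and antibody genes. To these came the called members of each list and up to 4 with the smallest p, genes of the JNK cascade, and up to 5 per direction in other comparisons. Lists are described by counts and medians, beside 1.2% of all genes called higher and 1.11% called lower. Promoters were those of RefSeq, matched by symbol for 14749 genes. The fit was tested on simulated data with known changes and the same spread in all groups. For JNK1-/- against control at 48 h it called 37.31% of log2 changes of 0.5, 88.06% of 1 and 95.45% of 2. Of its calls 3.922% were false. Changes near 0.5 were thus mostly missed, so a gene not called is not shown to be unchanged.

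Same-numbered arrays were checked for pairing. Their deviations from the group means correlated at 0.00, 0.09 and -0.05 between JNK1-/- and control at 48 h, and at 0.179, 0.0779 and 0.501 at 28 d. At 48 h they were -0.154, 0.0534 and -0.297 between JNK1Δhepa and control. Between JNK1-/- and JNK1Δhepa they were -0.088, 0.116 and -0.0714, and between ligated and sham control 0.0557, 0.0509 and -0.0504. With 3 arrays a group such values cannot settle whether same-numbered arrays belong together, so a replicate block was also fitted. Alternatives tried were quantile normalization, median centring, leaving out the dimmest genes (a share of 0.25), every single-symbol probe set, array weights, a variance trend with a robust prior, fewer arrays in the fit, a replicate block and leaving out each array.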

Additional observations from a re-analysis of the deposited data

Results flagged for a closer look

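The 26 genes below are those named by the rule whose JNK1-/- difference changed between 48 h and 28 d by limma (adjusted p under 0.05). Each value is the log2 difference at 28 d minus that at 48 h.

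Among genes of fatty acid and glucose metabolism, Angptl4 changed by -2.64 and Cpt1a by -1.04, whereas Mlxipl changed by 0.816, Pygl by 1.29, Gpam by 1.40 and Srebf1 by 1.85. Nudt7, a peroxisomal hydrolase of acyl-CoA, changed by 2.31. At 48 h the first 2 were higher and Mlxipl, Pygl, Gpam and Srebf1 lower in JNK1-/- liver, and at 28 d none of these 6 was called.

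Among carriers and secreted or receptor proteins the change was -3.70 for Obp2a, -3.37 for Slc10a6, -3.08 for Slc8a1, -2.91 for Nrg4, -1.29 for Slco1a4 and -1.19 for Il6ra. It was -3.07 for Chil3 and -1.83 for Cd163, the scavenger receptor of macrophages, which was called at 28 d (-1.44, adjusted p = 0.0056) and not at 48 h (0.39). Fmo2 changed by -2.58 and Per1 by -2.22.

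Among genes lower at 48 h the change was 5.71 for Car3, 3.52 for Inmt, 3.31 for Ces1g, 3.18 for Clec2h, 2.86 for Sytl5, 2.68 for Fam47e and 2.0 for H2-Q1. For Car3 the difference had the opposite sign at 28 d, where it was not called (1.95, adjusted p = 0.237). Mmd2, a membrane receptor-family protein, changed by 2.79. Cfap20dc was higher at both times and differed by 1.37 more at 28 d.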

How the results depend on the processing

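No gene called at 48 h changed sign under any alternative. The 433 calls (225 higher, 208 lower) stayed within 1.5 times under quantile normalization, median centring, the intensity filter, every probe set, the variance trend, the replicate block (447, with 366 of the 433 shared) and without the arrays whose Mapk8 reading went against the label. Fits to only the arrays compared, to only ligated arrays and with array weights gave 121, 182 and 1891 calls (58, 106 and 921 higher, 63, 76 and 970 lower), and leaving out 1 array gave 161 to 413 (80 to 180 higher, 77 to 233 lower). The same 3 fits gave 153, 198 and 1746 for JNK1-/- minus JNK1Δhepa (145 to 382 without 1 array), and 1, 52 and 300 for JNK1-/- at 28 d (56 to 413), with 179 there after median centring. They gave 0, 7 and 614 for the change between times (16 to 574), with 83 without the arrays whose Mapk8 reading went against the label. JNK1Δhepa against control had 1 call after median centring, 3 with array weights and 0 to 3 without 1 array. Control ligation had 3267 calls after centring, 3522 with array weights and 1104 to 1445 without 1 array. Without JNK1-/- replicate 1 the medians of the cholesterol synthesis and erythroid lists changed sign, from -0.64 to 0.0022 and from 0.56 to -0.058. Over the other arrays left out they reached -0.973 and 0.818. Why these counts differ was not tested. No depth is defined for arrays, and genes near background, such as Slc6a16 in control liver, have uncertain folds. Under the block the calls of Cish, Cyp2c55, Gpam, Map3k1, Mcm7, Slc22a26 and Srebf1 were lost, and no count of all genes moved by over 1.5 times.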
